A study of Mus musculus with 8 samples.

Results

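Csf2rb and 9 related cytokine receptor and signalling genes were followed in brown adipose tissue (BAT) of mice with cancer-associated cachexia (CAC). The 10 genes are the receptor chains Csf2rb, Csf2rb2, Csf2ra, Il3ra, Il5ra, Il2rg and Il4ra, the transcription factors Stat5a and Stat5b and the feedback inhibitor Cish, out of 56953 genes in the count table, and each was found there by its symbol. Csf2rb was chosen by its rise in CAC against control (CTR) mice in these libraries. The difference of Csf2rb is therefore given as a description with no test. The other 9 were picked as partner chains of Csf2rb, its close copy, its signalling route and chains of other cytokine receptors, Il2rg and Il4ra. Of the 10 genes, 7 passed the low-count filter and were tested, while Csf2rb2, Il3ra and Il5ra did not pass it. All mice were wild-type (WT) C57BL/6J of either sex aged 8 to 10 weeks. The 4 CAC mice received 3000000 Lewis Lung Carcinoma (LLC) cells, a mouse lung tumour line, in 100 µL of PBS under the skin of the right flank, and the 4 CTR mice received PBS without cells. The mice were followed for 21 days, and the tumour is a transplanted line rather than one that arose in the host. RNA of the whole tissue was sequenced in 1 library per mouse, with 2454493 to 4827956 counts in CTR and 1823167 to 3392538 in CAC.

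The common beta chain encoded by Csf2rb is the signalling part of the receptors for GM-CSF, IL-3 and IL-5, cytokines that drive the growth and survival of granulocytes, macrophages and eosinophils. Each cytokine first binds its own alpha chain, Csf2ra for GM-CSF, Il3ra for IL-3 and Il5ra for IL-5, and the beta chain then carries JAK2 and passes the signal to STAT5. Mice hold an additional beta chain gene, Csf2rb2, whose product pairs with the IL-3 alpha chain alone. Il2rg encodes the common gamma chain of the receptors for IL-2, IL-4, IL-7, IL-9, IL-15 and IL-21, which signals through JAK3, and Il4ra encodes the IL-4 receptor alpha chain, which joins the gamma chain or the IL-13 receptor and signals mainly through STAT6. Cish is a direct STAT5 target whose product dampens the receptors that induced it.

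Csf2rb lies at chr15:78325752-78353847 (GRCm38, plus strand) and Csf2rb2 at chr15:78282507-78305721 (minus strand), 20030 bases apart. Their longest coding sequences, of 2688 and 2634 bases in GENCODE M21, were identical at 95.2% of aligned bases, with 125 mismatches, 66 gap columns and a longest identical run of 242 bases. Reads were 75 cycles long, so runs of this length could place a read on either gene. The stretch of 120 coding bases without gaps that differs most between the copies is shown because it carries the letters by which reads of the pair can be told apart, with the 22 mismatched bases in capitals (bases 309 to 428 of the Csf2rb coding sequence and 312 to 431 of that of Csf2rb2).
Csf2rb: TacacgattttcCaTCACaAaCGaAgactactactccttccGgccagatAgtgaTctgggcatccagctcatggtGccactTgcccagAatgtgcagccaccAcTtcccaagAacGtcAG
Csf2rb2: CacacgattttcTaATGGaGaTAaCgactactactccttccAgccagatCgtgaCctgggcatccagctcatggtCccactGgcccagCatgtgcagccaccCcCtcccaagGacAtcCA
Of the distinct runs of 75 bases in Csf2rb transcripts, 7.15% (518 of 7243) also occur in Csf2rb2, where they make up 10.63% of 4872. The share of reads that falls in these runs was not measured. The count of Csf2rb was not a whole number in 1 of the 8 libraries, CTR replicate 4. Fractions of reads that add up to a whole number would not be seen in this way.

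The promoter of Cish is shown because it is the gene among the 10 best known as a STAT5 target. Promoter windows of 300 bases, from 250 before to 50 after the start, were taken from RefSeq on GRCm38.p6 and were found for 9 of the 10 genes in 11 windows, with Csf2rb the gene without one. The motif TTCNNNGAA, the general STAT palindrome, which is the same on both strands, was searched in each. Cish (chr9:107296409-107296708, plus strand) held 2 matches, which are in capitals and begin 0 and 11 bases after the start site.
Cish: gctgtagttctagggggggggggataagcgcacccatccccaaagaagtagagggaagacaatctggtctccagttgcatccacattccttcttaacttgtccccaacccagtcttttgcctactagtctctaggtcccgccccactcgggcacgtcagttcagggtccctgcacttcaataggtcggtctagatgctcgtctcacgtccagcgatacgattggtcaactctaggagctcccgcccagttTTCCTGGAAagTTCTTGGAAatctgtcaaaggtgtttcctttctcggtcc
Csf2rb2 held 1 match, which begins 15 bases before the start (position -15). Among 32851 promoter windows of the same length, 8.3% held at least 1 match and 0.46% held 2 or more. A match of these letters is a description of the sequence and not evidence of binding.

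Csf2rb was more abundant in every CAC library than in every CTR library. Its counts were 38, 50, 26 and 58.5 in CTR replicates 1 to 4 and 85, 93, 130 and 103 in CAC replicates 1 to 4, although the CAC libraries were in general smaller. Scaled to CPM, that is counts normalised to a common library size by the TMM method, it was at 13.7, 13.3, 10.8 and 12.8 in CTR and at 45.9, 49.5, 38.1 and 35.9 in CAC. The CTR libraries were close together and the lowest CAC library stood well above them. The means were 12.6 ± 1.29 CPM in CTR and 42.4 ± 6.41 CPM in CAC, where ± gives the SD over the 4 libraries of a group here and throughout. The log2 fold change was 1.72 with a standard error of 0.16, which placed Csf2rb 13th of 9876 genes by log2 fold change. Among genes with an edgeR adjusted p under 0.05, groups that did not overlap and a mean of at least 5 CPM, it was the 5th, after Retnlg at 3.40 and before Lrrc30 at 1.70. These values chose the gene and are not evidence for it. With the counts of both copies added into 1 gene, the log2 fold change was 1.67.

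**Figure D1:**
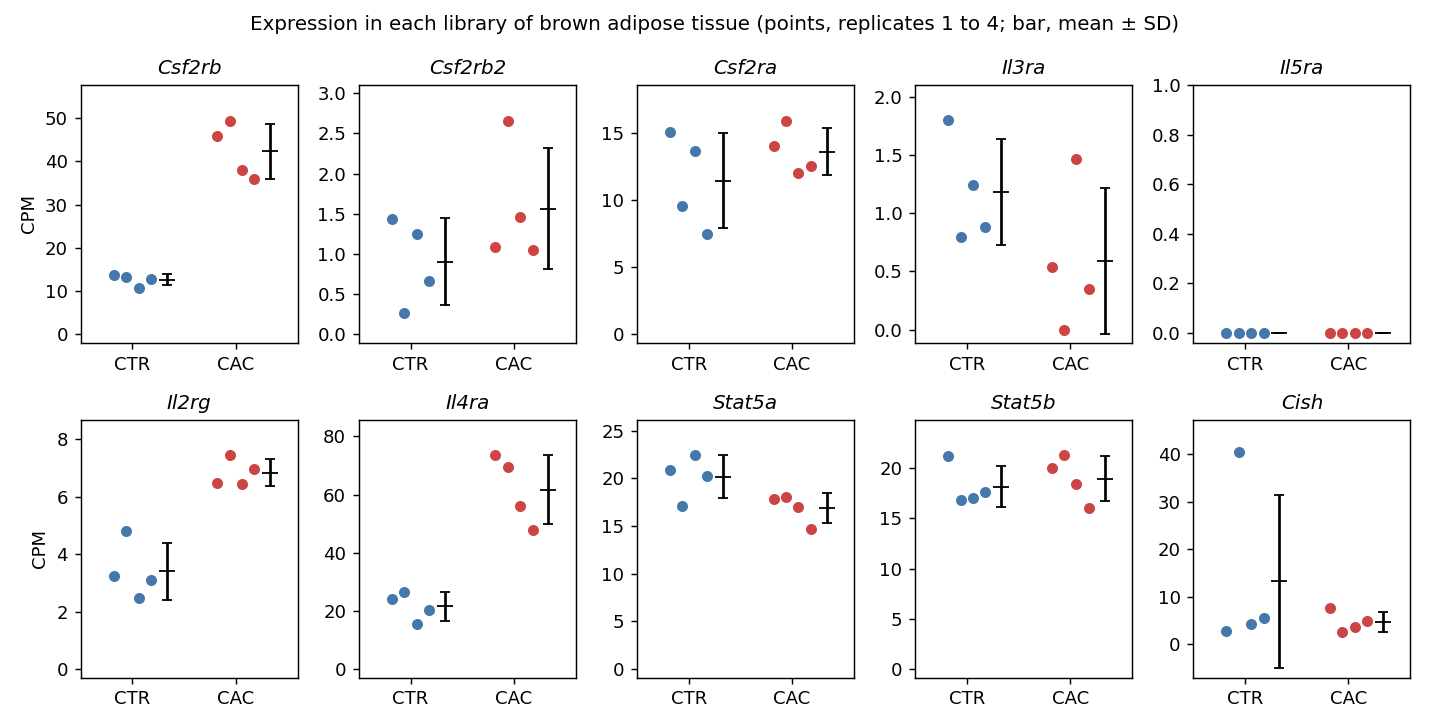
Each panel plots the CPM of 1 of the 10 genes (vertical axis, a separate scale in each panel) in the 4 CTR and 4 CAC libraries as points in replicate order, with the mean ± SD as a bar beside each group. Csf2rb, Il4ra and Il2rg separate the groups, Il5ra is at 0 throughout, and the Cish panel holds 1 CTR library at 40.5 CPM.

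The close copy Csf2rb2 was near the limit of detection. Its counts were 4, 1, 3 and 3 in CTR and 2, 5, 5 and 3 in CAC, or 0.903 ± 0.538 and 1.56 ± 0.755 CPM, and the groups overlapped. An exact two-sided permutation test over the 70 assignments of the 8 libraries gave p = 0.229, where 0.0286 is the smallest p that 4 against 4 allow. The difference of the means, 0.66 CPM, was 0.294 CPM without CAC replicate 2. At this depth 3 counts, up to which a gene may go unseen, correspond to 0.661 to 1.622 CPM per library, so the copy sat at about that level in both groups. With no low-count filter its edgeR log2 fold change was 0.81 (standard error 0.671, adjusted p = 0.682). The log2 ratio of Csf2rb to Csf2rb2 counts, with 0.5 added to each, was 3.79 ± 0.99 in CTR and 4.66 ± 0.44 in CAC. The ratio ranged from 2.92 to 5.07 in CTR and from 4.09 to 5.10 in CAC, so the libraries overlapped. Csf2rb2 made up 6.68% ± 3.96 of the reads of the pair in CTR and 3.48% ± 1.22 in CAC. The ratio and this share both hold Csf2rb, which was chosen for its rise, so they are descriptions and were not tested.

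The GM-CSF receptor alpha chain Csf2ra (chr19:61223957-61228429, GRCm38) was detected in all libraries and did not pass the test. It was at 15.1, 9.59, 13.7 and 7.50 CPM in CTR and at 14.1, 16.0, 12.0 and 12.6 CPM in CAC, and the CAC libraries lay within or just above the CTR range. The log2 fold change was 0.28 (95% interval -0.20 to 0.75, edgeR adjusted p = 0.661), so a difference larger than 0.75 on the log2 scale lies outside that interval. The log2 fold change was 0.10 without CTR replicate 4 and 0.44 without CTR replicate 1. No run of 75 bases in Csf2ra occurs in another gene. Beside the levels of Csf2rb, the CPM of Csf2rb divided by that of Csf2ra was 1.20 ± 0.43 in CTR (0.788 to 1.71) and 3.10 ± 0.17 in CAC (2.86 to 3.27). The size of this ratio depends on the lengths of both genes, and its difference between the groups was not tested because Csf2rb was chosen for its own.

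The alpha chains for IL-3 and IL-5 were at or under the detection limit. Il3ra (chr14:14346275-14356011) had 5, 3, 3 and 4 counts in CTR and 1, 0, 5 and 1 in CAC, or 1.18 ± 0.455 and 0.589 ± 0.626 CPM (exact two-sided permutation p = 0.171). The difference of the means, -0.593 CPM, was -0.387 CPM without CTR replicate 1 and, at the other end, -0.885 CPM without CAC replicate 3. The highest CAC library lay inside the CTR range and the other CAC libraries lay below it. With no low-count filter its edgeR log2 fold change was -0.72 (standard error 0.757, adjusted p = 0.704). Il5ra (chr6:106710357-106749037) had 0 counts in all 8 libraries, which allows a level of up to 0.661 to 1.622 CPM per library. Of the alpha chains that the common beta chain can join, Csf2ra was therefore the one measured above the limit in each library.

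Il4ra rose in CAC and was the one gene to pass the test among the tested genes other than Csf2rb. It lies at chr7:125552120-125579474 (GRCm38, plus strand) and was at 24.1, 26.6, 15.4 and 20.3 CPM in CTR and at 73.5, 69.7, 56.0 and 47.8 CPM in CAC. All 4 CAC libraries stood above all 4 CTR libraries. The mean went from 21.6 ± 4.91 to 61.7 ± 12.0 CPM, and the log2 fold change was 1.48 with a standard error of 0.17 (95% interval 1.14 to 1.83, edgeR adjusted p = 3.19e-05), which is 2.80-fold and exceeds the spread between mice. Of the 9876 genes, 0.932% had an adjusted p under 0.05, 0.739% in the higher direction, 3.64% had all CAC libraries above all CTR libraries and 7.04% had groups that did not overlap in either direction. The 28.6% of the 7 tested genes that had an adjusted p under 0.05 include Csf2rb, whose part in that share the choice of the genes fixed, so nothing is read from it. Il4ra shares 7.95% of its 75-base runs with Gm44876, an antisense gene that overlaps its exons and had 0 counts.

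Il2rg, the common gamma chain (chromosome X from 101264378 to 101268255 on GRCm38), was higher in each CAC library without passing the test. It had 9, 18, 6 and 14 counts in CTR and 12, 14, 22 and 20 in CAC, or 3.24, 4.79, 2.49 and 3.09 CPM and 6.49, 7.44, 6.45 and 6.97 CPM. The groups did not overlap and the CAC libraries were tightly placed. In most CTR libraries Il2rg lay below the level that the low-count filter asks for, and it passed the filter through the CAC libraries. Its separation and its interval are given with that limit. The means were 3.40 ± 0.98 and 6.84 ± 0.47 CPM, and the log2 fold change was 0.96 (95% interval 0.37 to 1.55, edgeR adjusted p = 0.111). Of the tested genes, 12.9% had an unadjusted p under 0.05, with 7.01% of the tested genes higher and 5.93% lower in CAC, and 3 of the 7 genes here did so, Csf2rb included. Part of its sequence is not its own in the annotation, since 25.98% of its 75-base runs also belong to Gm20489, a coding gene on the same strand that overlaps it. Gm20489 is not among the genes of the count table.

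Stat5a and Stat5b, which lie 8626 bases apart on chromosome 11 on opposite strands, did not pass the test in either direction. Stat5a (chr11:100859351-100885169) was at 20.9, 17.0, 22.4 and 20.3 CPM in CTR and at 17.8, 18.1, 17.0 and 14.6 CPM in CAC. The groups overlapped, and the log2 fold change was -0.26 (95% interval -0.60 to 0.08, edgeR adjusted p = 0.547). Stat5b (chr11:100780731-100850724) was at 21.2, 16.8, 17.0 and 17.6 CPM in CTR and at 20.0, 21.3, 18.5 and 16.0 CPM in CAC. Its log2 fold change was 0.05 (95% interval -0.29 to 0.39, edgeR adjusted p = 0.943). Intervals of this width leave room for changes of less than about 0.6 on the log2 scale. Added together, the pair averaged 38.3 ± 3.46 CPM in CTR and 35.8 ± 3.79 in CAC.

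The balance of Stat5a and Stat5b counts, a value chosen after it was seen, had groups that did not overlap. The log2 ratio of Stat5a to Stat5b was 0.15 ± 0.19 in CTR (-0.01 to 0.41) and -0.16 ± 0.05 in CAC (-0.23 to -0.11), given as a description with no test. Their coding sequences were identical at 91.1% of aligned bases and shared 387 runs of 75 bases, 5.12% of those in Stat5a and 6.99% of those in Stat5b. Stat5a also overlaps exons of Stat3 on the other strand, and the strand setting of the counting is not given in the sources used here. The counts of Stat5a were not whole numbers in 4 libraries. The part of these in the ratio was not tested.

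Cish (chr9:107296026-107302784, plus strand) gave no difference between the groups that the test could resolve. It was at 2.88, 40.5, 4.15 and 5.51 CPM in CTR and at 7.57, 2.66, 3.52 and 4.88 CPM in CAC, so that CTR replicate 2 stood far above the other 7 libraries, which lay together. The log2 fold change was -1.61 (standard error 1.09, 95% interval -4.26 to 1.04, edgeR adjusted p = 0.614), and without CTR replicate 2 it was 0.06 (adjusted p = 0.979). In CTR replicate 2 the STAT5 repressed gene Bcl6 was at 13.05 CPM, the lowest of the 8 libraries, although CTR replicate 4 was close at 16.3 CPM and the other CTR libraries were at 75.9 and 61.0 CPM. Socs2, a further STAT5 target of the same family of inhibitors, was at 5.33 CPM there and at 6.61 to 13.7 CPM in the other CTR libraries. Cish overlaps Gm17041, which had 86 counts in all libraries together on the opposite strand, and 7.93% of its 75-base runs occur in Gm17041 or Gm17040. The part of these genes in the value of CTR replicate 2 was not tested.

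**Figure D2:**
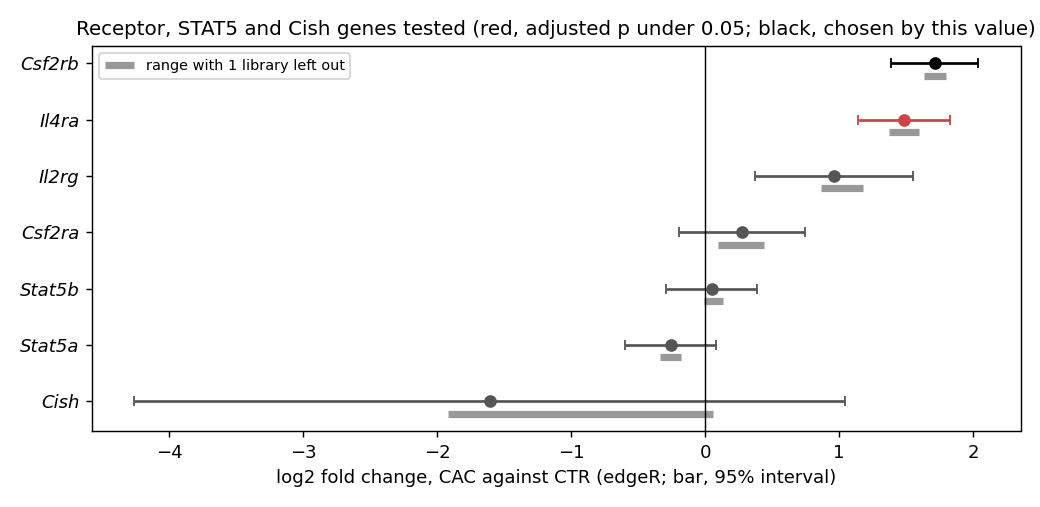
Points mark the edgeR log2 fold change (horizontal axis, CAC against CTR) of the 7 genes tested, thin bars the 95% interval and thick grey bars the range over the 8 fits that each left out 1 library. Il4ra at 1.48 is in red, for an adjusted p under 0.05, Csf2rb at 1.72, which chose the gene, is in black, and the grey bar of Cish runs from -1.92 to 0.06.

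Compared per length of annotated exons, the order of the 10 genes differed between the groups. In CTR, Csf2ra came first at 4.00 CPM per kilobase (2.61 to 5.26), followed by Il4ra at 3.60 (2.56 to 4.44), Stat5b at 3.28 (3.03 to 3.83) and Stat5a at 2.83 (2.39 to 3.14), and the range of each overlapped that of the next. Cish, at 2.07, spanned 0.449 to 6.31. Csf2rb was at 1.74 CPM per kilobase in CTR (1.48 to 1.88), below Csf2ra, Il4ra, Stat5b and Stat5a in every library, and its range overlapped that of Il2rg (1.04 to 2.01). In CAC, Il4ra led at 10.3 CPM per kilobase (7.96 to 12.2), above all others in every library. Csf2rb followed at 5.82 (4.93 to 6.80), overlapping Csf2ra at 4.75 (4.18 to 5.56), and both lay above Stat5b at 3.42 (2.90 to 3.84). Il2rg at 2.86 (2.70 to 3.12) overlapped Stat5b and lay above Stat5a at 2.37 (2.05 to 2.53). Il3ra and Csf2rb2 stood below 0.61 CPM per kilobase in each library of both groups. The service that made the libraries calls its method Digital mRNA-seq, and where its reads fall along a transcript is not given in the sources used here. The scale per kilobase applies only if reads cover whole transcripts. By CPM alone, the order in CTR was Il4ra at 21.6, Stat5a at 20.2, Stat5b at 18.2, Cish at 13.3, Csf2rb at 12.6 and Csf2ra at 11.5. Csf2ra thus came first in CTR only on the scale per kilobase. In CAC, Il4ra at 61.7 CPM and Csf2rb at 42.4 CPM led on both scales.

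The libraries also differed in markers of blood cells, and in bulk tissue more cells of a type cannot be told apart from more RNA per cell. The summed level of 10 genes of leukocytes was 42.3 to 63.3 CPM in CTR and 73.9 to 97.6 CPM in CAC, a 1.73-fold difference of the means. Of the 10, Tyrobp, Fcer1g, Spi1 and Cybb are mainly myeloid genes, so the sum is partly myeloid. All 6 of the 10 that were tested had an unadjusted p under 0.05. Fcer1g (log2 fold change 1.15, edgeR adjusted p = 0.00998) and Tyrobp (0.96, adjusted p = 0.0201) were past the adjusted threshold. Both calls were lost without CAC replicate 3, and that of Tyrobp also without CTR replicate 2 or CAC replicate 4. The 16 neutrophil markers summed to 23.4 to 33.0 CPM in CTR and to 194 to 464 CPM in CAC, where S100a8, S100a9 and Retnlg passed the test out of 6 tested. In most CTR libraries S100a8, S100a9 and Retnlg lay below the level that the low-count filter asks for, and they passed the filter through the CAC libraries. Ly6g, Mpo, Elane, Camp and Cxcr2 were at 0 in every CTR library. In CAC, Ly6g, Mpo, Elane and Camp averaged 0.21, 0.22, 0.27 and 0.64 CPM, each at 0 in some of the libraries. Cxcr2 was seen in each CAC library, at 1.87 ± 0.75 CPM. With no low-count filter, Cxcr2, Lcn2 and Ngp were also called. The call of Retnlg was lost without CTR replicate 1, 2 or 4. S100a8 and S100a9 made up 83.0% of the neutrophil sum in CAC, and without them the other 14 markers summed to 18.1 to 27.2 CPM in CTR and 39.4 to 63.0 CPM in CAC, a 2.23-fold difference of the means. Wfdc21, at 11.4 ± 3.64 and 10.7 ± 5.85 CPM, made up much of that remainder in CTR, and without it as well the sums were 10.8 to 12.0 and 27.9 to 51.9 CPM, a 3.51-fold difference. The 16 monocyte and macrophage markers summed to 238 to 265 CPM in CTR and to 324 to 446 CPM in CAC, with C1qa and C1qb passing the test out of 10 tested. Markers of eosinophils, a main user of the IL-5 receptor, summed to 0.22 to 2.07 CPM in CTR and 0.35 to 1.76 CPM in CAC, and 4 of the 9, Siglecf, Prg3, Ear6 and Alox15, had no read in any library, while Ear1 had fractions of a read that round to 0. Of 10 mast cell and basophil markers, which summed to 13.3 to 26.6 CPM in CTR and 17.0 to 34.0 CPM in CAC, the IgE receptor chains Fcer1a and Ms4a2 and the basophil protease Mcpt8 were at 0 in all libraries. The 4 tested did not pass, with Hdc, which makes histamine, at 3.35 ± 0.72 and 6.57 ± 2.55 CPM (log2 fold change 0.94, edgeR adjusted p = 0.18) and the mast cell proteases Cpa3 (0.53, adjusted p = 0.554) and Mcpt4 (0.46, adjusted p = 0.68) also overlapping between the groups. Cma1, a further mast cell protease, was too low for the test at 2.44 ± 1.52 and 3.59 ± 0.45 CPM. In the other direction, Kit was at 5.30 ± 2.34 and 4.49 ± 2.22 CPM (log2 fold change -0.10, edgeR adjusted p = 0.95) and the mast cell protease Tpsb2, also too low for the test, at 3.06 ± 2.42 and 1.79 ± 1.00 CPM. Dendritic cell markers summed to 19.8 to 27.4 CPM in CTR and 14.6 to 25.5 CPM in CAC, almost all of it Zbtb46, while Flt3 and Xcr1 were near 0. B cell markers were at 8.28 to 11.2 and 4.87 to 11.4 CPM, and T, NK and innate lymphoid markers at 29.5 to 41.0 and 38.9 to 45.7 CPM, of which Rora made up most.

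Brown adipocyte markers, including Ucp1 and Cidea, summed to 15878 to 17745 CPM in CTR and 15451 to 17693 CPM in CAC, so the labelled tissue was present in both groups. Cidea, Ucp1 and Fabp4 carry most of this sum, and single markers in it lay in different directions. Ppargc1a, a coactivator of mitochondrial genes, rose from 51.8 ± 10.4 to 86.5 ± 16.9 CPM (log2 fold change 0.73, edgeR adjusted p = 0.0201), a call lost without CTR replicate 1, CTR replicate 2 or CAC replicate 3. Plin1, at 664 ± 15.4 and 550 ± 59.8 CPM (-0.27, adjusted p = 0.192), and Cox8b, at 1085 ± 71.8 and 931 ± 64.1 CPM (-0.22, adjusted p = 0.286), did not pass the test, with each CAC library below each CTR library. Endothelial markers were at 271 to 345 and 225 to 315 CPM and fibroblast markers at 495 to 642 and 438 to 645 CPM, and none of the 7 and 8 tested passed edgeR's test. Within these sums, the endothelial genes Vwf, at 5.03 ± 1.77 and 8.67 ± 1.47 CPM (log2 fold change 0.78, edgeR adjusted p = 0.186), and Kdr, at 169 ± 21.1 and 135 ± 22.7 CPM (-0.32, adjusted p = 0.259), had values on opposite sides of 0 and overlapping groups. Cd34, found on progenitor and endothelial cells, was at 20.9 ± 0.27 and 33.6 ± 9.78 CPM (0.69, adjusted p = 0.0623) with each CAC library above each CTR library, and it was called with no low-count filter and without CAC replicate 1 or CAC replicate 4. The collagen gene Col3a1, at 119 ± 27.7 and 78.2 ± 29.1 CPM (-0.59, adjusted p = 0.423), was called lower without CAC replicate 3. Skeletal muscle markers were at 723 to 1917 CPM in CTR and 1579 to 3170 CPM in CAC, and erythrocyte genes at 6180 to 19266 and 14631 to 44312 CPM. None of the muscle or erythrocyte genes passed edgeR's test, although 3 of 6 and 4 of 5 had an unadjusted p under 0.05, and DESeq2 called the muscle gene Myh4.

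Set against the leukocyte sum of the same library, which is partly myeloid, Csf2rb was at 0.263 ± 0.039 in CTR (0.216 to 0.302) and at 0.507 ± 0.121 in CAC (0.390 to 0.669). This is a description that the choice of Csf2rb largely fixes. The same ratio for Il4ra was 0.446 ± 0.102 in CTR (0.349 to 0.575) and 0.737 ± 0.181 in CAC (0.574 to 0.942), with the lowest CAC library just inside the CTR range. For Il2rg it was 0.071 ± 0.024 and 0.082 ± 0.015, within the spread between mice. The part of leukocytes in the values of Csf2rb, Il4ra and Il2rg was not tested.

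**Figure D3:**
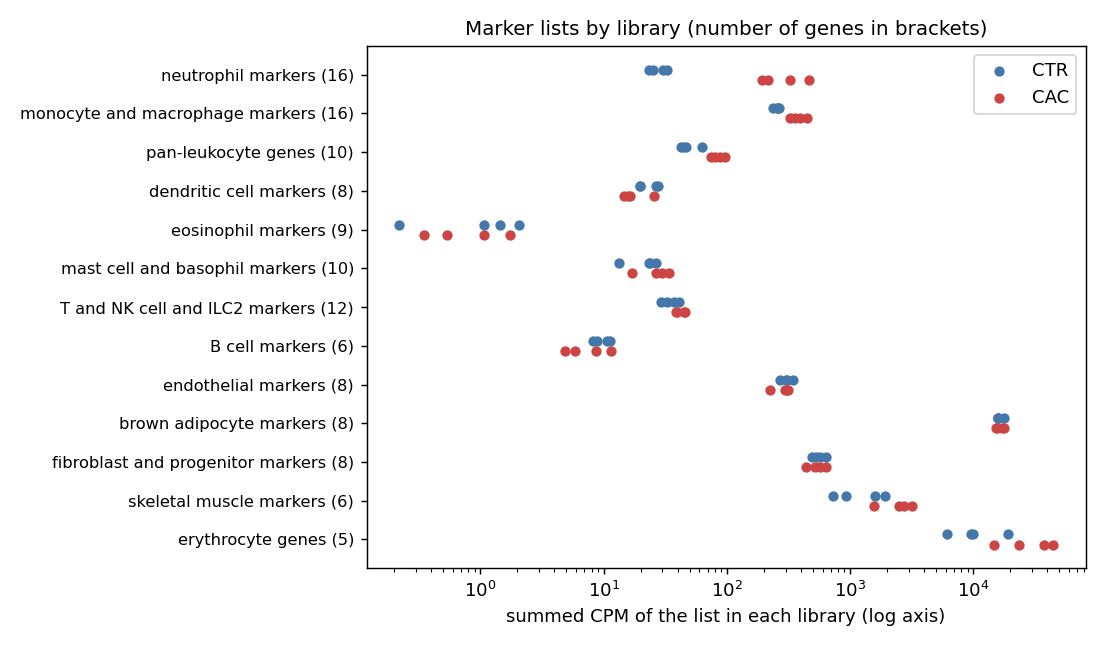
Points give the summed CPM (horizontal log axis) of each marker list in the 4 CTR and 4 CAC libraries, with the number of genes in the list in brackets. The neutrophil, monocyte and macrophage and pan-leukocyte sums separate the groups, with neutrophil sums of 23.4 to 33.0 CPM in CTR and 194 to 464 CPM in CAC (18.1 to 27.2 and 39.4 to 63.0 CPM without S100a8 and S100a9, and 10.8 to 12.0 and 27.9 to 51.9 CPM also without Wfdc21), while brown adipocyte sums overlap.

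The profile of Csf2rb over the 8 libraries was nearest to that of Il4ra. Among 8624 tested genes with a mean of at least 5 CPM, the root mean square difference of the centred log2 CPM was smallest for Il4ra at 0.172, followed by the circadian clock gene Per1 at 0.226, the matrix gene Vwa1 at 0.236, Fam110d at 0.321 and Fxyd5, a regulator of the sodium pump, at 0.321. Per1 averaged 5.54 ± 1.33 CPM in CTR and 16.6 ± 0.82 in CAC, Vwa1 at 9.37 ± 1.07 and 27.9 ± 3.32, Fam110d at 5.07 ± 1.00 and 12.3 ± 2.86 and Fxyd5 at 6.38 ± 1.59 and 15.0 ± 2.74. Each of these 4 genes had all CAC libraries above all CTR libraries, which nearness to Csf2rb brings with it. Il2rg stood at position 18 with 0.435 and Csf2ra at position 1213 with 0.766, while Stat5b was at 2333, Stat5a at 6617 and Cish at 8603. This likeness rests on 8 libraries in 2 groups and is a description.

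**Figure D4:**
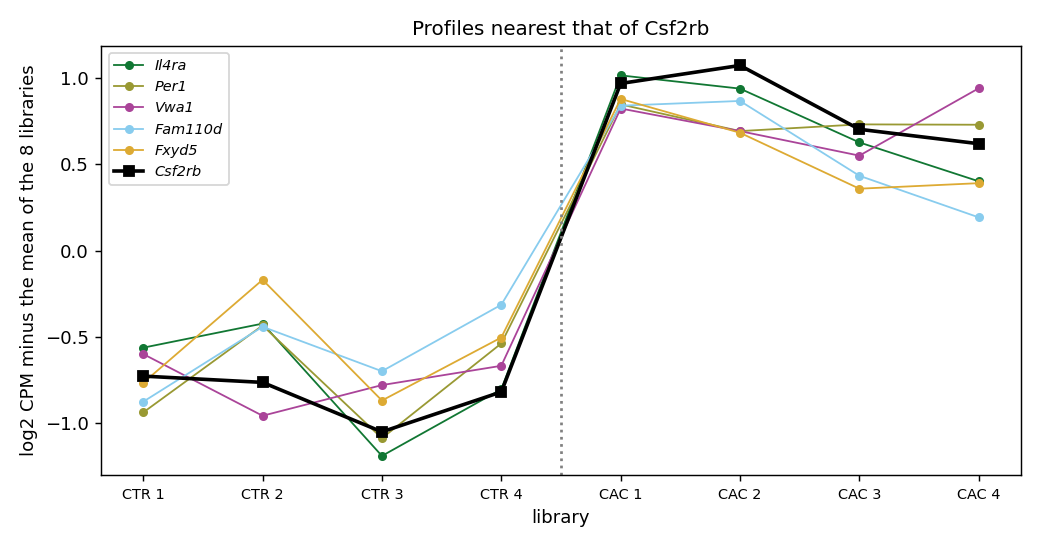
Lines give the log2 CPM of Csf2rb (black squares) and of the 5 genes nearest to it, each minus its own mean (vertical axis), in the 8 libraries (horizontal axis). Il4ra follows Csf2rb most closely, with a root mean square difference of 0.172, and both are lower in CAC replicates 3 and 4 than in CAC replicates 1 and 2.

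Other genes of the pathway were examined in 8 lists of 77 genes, of which 45 could be tested. None had an adjusted p under 0.05 in edgeR, DESeq2 or limma, while 9 of the 45 (20.0%) had an unadjusted p under 0.05 in edgeR, 7 of them higher and 2 lower in CAC, against 12.9% of all genes tested (7.01% higher and 5.93% lower). The median log2 fold change of all tested genes was within 0.01 of 0.

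The ligands other than Il2 were barely seen. Of 11 cytokines, those that use the beta or gamma chain together with IL-13 and TSLP, which bind related receptors, Csf2, Il3, Il5, Il9, Il13 and Il21 had 0 counts in all 8 libraries, and Il4, Il7, Il15 and Tslp had group means below 1.4 CPM. Il2 was the one tested, with means of 11.9 ± 2.09 CPM in CTR and 11.6 ± 1.87 in CAC (edgeR adjusted p = 0.967), and its counts include fractions of reads that other genes share. Among 9 other chains of these receptors, the 2 tested were Crlf2, which pairs with the IL-7 receptor alpha chain to bind TSLP, at 2.98 ± 2.08 and 6.24 ± 1.28 CPM (log2 fold change 0.96, edgeR adjusted p = 0.262), and Il15ra at 5.67 ± 1.66 and 6.49 ± 1.24 CPM. Il13ra1, the partner of Il4ra in the receptor that binds both IL-4 and IL-13, was at 1.36 ± 1.15 and 1.34 ± 0.33 CPM and was too low for the test.

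Among 6 other growth factor receptors of myeloid cells, Csf1r, the receptor of macrophages for M-CSF, averaged 53.2 ± 8.64 CPM in CTR and 73.8 ± 7.27 in CAC. All CAC libraries lay above the CTR libraries and the log2 fold change was 0.48 (edgeR adjusted p = 0.0778), which passed the adjusted threshold without CTR replicate 3 and with no low-count filter. The stem cell factor receptor Kit, whose values stand with the mast cell markers, did not pass the test, and the G-CSF receptor Csf3r, at 0.188 ± 0.252 and 1.41 ± 1.25 CPM, was too low for the test. The growth hormone receptor Ghr, a strong activator of STAT5 in other tissues, was at 56.8 ± 4.37 and 59.6 ± 5.80 CPM (edgeR adjusted p = 0.838).

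Of 9 JAK kinases and other STATs, 8 were tested and 6 of those had higher CAC levels, the median log2 fold change being 0.25. Stat3, which carries IL-6 family signals, averaged 81.3 ± 5.50 CPM in CTR and 106 ± 3.87 in CAC. Its log2 fold change was 0.38 (edgeR adjusted p = 0.0881), with no overlap between the groups. Jak1 was at 91.3 ± 7.69 and 109 ± 12.9 CPM (log2 fold change 0.25, edgeR adjusted p = 0.341). The kinase of the beta chain, Jak2, was at 5.85 ± 1.19 and 5.90 ± 1.30 CPM, that of the gamma chain, Jak3, at 6.50 ± 0.75 and 7.52 ± 0.93 CPM, and the IL-4 effector Stat6 at 9.63 ± 1.83 and 9.40 ± 0.79 CPM, each with overlapping groups.

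Of 18 negative regulators, 14 were tested, with a median log2 fold change of 0.03 and 10 of them higher in CAC. Pias3, an inhibitor of STAT3, averaged 16.2 ± 1.63 CPM in CTR and 11.1 ± 0.99 in CAC (log2 fold change -0.53, edgeR adjusted p = 0.182), with all CAC libraries below the CTR libraries. Socs6 (0.54 on the log2 scale, edgeR adjusted p = 0.265) and Socs2 (0.50, adjusted p = 0.474) were among those higher. The cytokine feedback inhibitor Socs3 was too low for the test, at 0.667 ± 0.466 and 2.61 ± 1.10 CPM, although its CAC libraries all lay above the CTR libraries. Of 10 adaptors and kinases close to the receptors, 9 were tested with a median of 0.13, led by the myeloid kinase Fes at 4.48 ± 1.51 and 7.13 ± 1.06 CPM (log2 fold change 0.69, edgeR adjusted p = 0.286), then Lyn at 0.38 and Sos1 at -0.21.

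Of 11 STAT5 target genes, 8 were tested, with a median log2 fold change of 0.19, and those with the smallest p pointed in different directions. Cdkn1a, the cell cycle inhibitor p21, averaged 47.6 ± 3.48 CPM in CTR and 69.8 ± 17.6 in CAC (log2 fold change 0.54, edgeR adjusted p = 0.0829), and no CAC library lay within the CTR range, each being higher. The survival kinase Pim1 was at 251 ± 22.7 and 189 ± 29.2 CPM (log2 fold change -0.41, edgeR adjusted p = 0.0881), with all CAC libraries below the CTR libraries, and it passed the threshold without CAC replicate 3. Ccnd2, which encodes cyclin D2, was at 157 ± 10.3 and 180 ± 29.2 CPM (log2 fold change 0.20, edgeR adjusted p = 0.481). With no low-count filter, Cdkn1a and Pim1 were called.

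**Figure D5:**
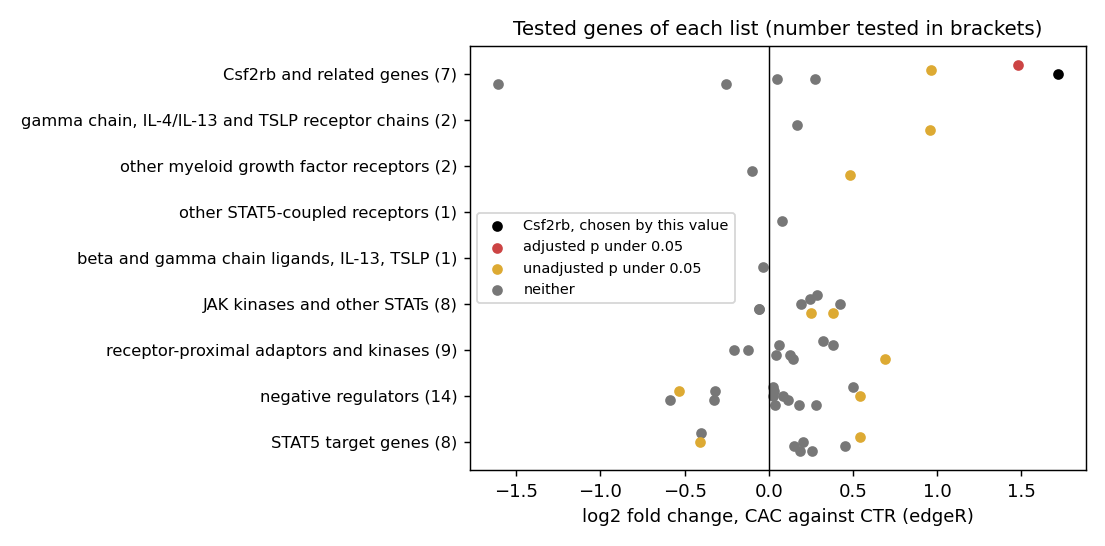
Each point is the edgeR log2 fold change (horizontal axis, CAC against CTR) of 1 tested gene of each list, with the number tested in brackets and red, yellow and grey marking an adjusted p under 0.05, an unadjusted p under 0.05 and neither (Csf2rb, chosen by this value, in black). Csf2rb at 1.72 and Il4ra at 1.48 stand apart to the right, and across the other 8 lists the points lie on both sides of 0.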

How the data were processed

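Libraries of BAT from 4 CTR and 4 CAC mice were analysed, with groups taken from the labels. The authors checked reads with FastQC 0.11.9, aligned them to mm10 with HISAT2 2.2.1 and counted them with featureCounts using the multi-mapping option. The deposited count table holds expected counts, which are unnormalized reads of each gene, and 25.1% to 28.4% of nonzero values per library are not whole. A further table deposited by the authors holds a signal normalized with DESeq2. Counts were rounded and tested in R 4.3.3 with edgeR 4.0.16 (filterByExpr, TMM, robust quasi-likelihood test, Benjamini-Hochberg adjustment over 9876 genes, threshold 0.05), after the procedure was tested on simulated data. CPM use TMM library sizes, and log2 CPM a prior count of 2. Genes too low for the filter were compared by exact permutation. Limits from counts cover counting error only.

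The 10 genes and all lists were chosen with earlier results of these data known. The genes named are the 10, up to 3 with the smallest p of each list and the 5 profiles nearest to Csf2rb. Some list genes that this rule picks are not reported here. Other list genes were named after their values were seen, for their role or their level. Positions and transcripts are GENCODE M21 (GRCm38) matched by gene ID without version, and runs of 75 bases were compared with all its transcripts. Coding sequences were aligned with Biopython 1.88. Alternatives were DESeq2 1.42.0, other normalizations and filters, fractions dropped, a block for the replicate number, limma-trend with limma 3.58.1 on log2 of the signal plus 1, both Csf2rb copies summed and each library left out. The pseudocount and left-out libraries of the copy ratio and the neutrophil sums without their most abundant genes were added after seeing the data. Plots used matplotlib 3.10.9 and tables pandas 2.3.3 with numpy 2.4.6 in Python 3.11.15. The labels do not say that libraries of a group come from separate litters or cages, so p-values measure the spread between these libraries. The strand setting was not given in the sources used here.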

Additional observations from a re-analysis of the deposited data

Results flagged for a closer look

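In 6 of 176 groups of 4 libraries examined, 1 library lay far from the other 3, and chance gives about 1 in 20, or 8.8 such groups. Cish was at 40.48 CPM in CTR replicate 2 and at 2.879 to 5.512 CPM in the other CTR libraries. The summed brown adipocyte markers were at 17740 CPM in CTR replicate 4 against 15880 to 16040 CPM. Crlf2, the TSLP receptor chain, was at 4.325 CPM in CAC replicate 1 and at 6.739 to 6.972 CPM in the others, and Pias3 was at 12.6 CPM in CAC replicate 3 and at 10.46 to 10.81 CPM in the others. The dendritic cell marker Zbtb46 reached 22.34 CPM in CAC replicate 2, with the others at 13.19 to 14.05 CPM, and the summed dendritic cell markers, which it dominates, were at 25.52 CPM there against 14.6 to 16.39 CPM. No cause was tested for these values.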

How the results depend on the processing

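The log2 fold change of Il4ra kept its direction and its side of the threshold in all 17 alternatives, from 1.37 to 1.60 (adjusted p at most 0.000462). That of Csf2rb, which chose the gene and supports nothing, ranged from 1.64 to 1.80. Il2rg stayed between 0.87 and 1.18 without passing the threshold in 16 alternatives (adjusted p 0.103 to 0.247) and was not tested with at least 10 counts in every library. Csf2ra ranged from 0.10 to 0.44 and Stat5a from -0.33 to -0.18 with no call. With 1 library left out, Stat5b ranged from -0.005275, a reversed sign without CAC replicate 2, to 0.132, and Cish from -1.917 to 0.05984, a reversed sign without CTR replicate 2. The cause was not tested. The log2 ratio of Csf2rb to Csf2rb2 differed by 0.868 between the groups, by 0.9186 with a pseudocount of 1 and by 0.5777 to 1.295 with 1 library left out.

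Of all tested genes, 92 were called, 73 higher and 19 lower in CAC. With no low-count filter these were 351, 219 and 132, and with DESeq2 31 were lower. With 1 library left out, the called genes ranged from 42 to 135, with 38 to 104 higher and 4 to 35 lower, and were 42 without CTR replicate 1 and 60 without CAC replicate 3. With the replicate number as a replicate block, 140 were called, 112 of them higher, and the muscle genes Myh4 and Tnnt3 among them. The same numbers did not deviate together (correlations -0.023 to 0.036), and 2 of 4 CTR libraries correlated best with their own number. With 4 libraries in a group, this check gave no sign that the numbers pair the mice and cannot exclude it. Median log2 fold changes of all genes moved by at most 0.022 between scalings. Genes below about 1.6 CPM, which include Csf2rb2, Il3ra and Il5ra, are limited by depth.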
